A study of Mus musculus with 32 samples.

Results

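Vsx1, Nr2e1, Rorb, Vax1, Vax2, Tbx2, Tbx3 and Tbx5 encode transcription factors of the optic vesicle or the retina, and their mRNA was followed through mouse retinal organoid differentiation. The 8 genes were taken by symbol as factors of the neural retina (Vsx1, Nr2e1, Rorb), of the ventral vesicle (Vax1, Vax2) and of the dorsal vesicle (Tbx2, Tbx3, Tbx5), and each matched 1 of the 55492 rows of the expression table. The table held polyadenylated RNA of 32 libraries, in 16 groups of 2, from 4 kinds of culture at days 0, 2, 4 and 6. WT was the Rx:GFP embryonic stem cell line, and KO was labelled as a Mettl3 knockout, Mettl3 being the gene of the methyltransferase that puts N6-methyladenosine on mRNA. The other pair of cultures was the KO line overexpressing wild-type METTL3 joined to a domain that the labels call GRBD, kept without dexamethasone (no Dex) or given 10 µM dexamethasone, a synthetic glucocorticoid (Dex). The design text places the fusion protein in the cytosol without Dex and in the nucleus with it.

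Day 0 cultures were stem cells and later ones organoids, grown in medium that held a compound the labels call AGN at 0.1 µM. WT and KO cultures received no Dex, so no group shows Dex without the fusion protein. The treatment text lists Dex for 2, 4 and 6 days, whereas the day 0 group is also labelled Dex, and the label was followed. The labels do not say whether each line was 1 clone. The 2 libraries of a group were prepared and sequenced in separate rounds, but separate cultures are not stated. The p-values here therefore measure only the spread between such duplicates, pooled over the groups, which may be technical.

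In the embryo the optic vesicle grows out of the forebrain eye field and divides into neural retina, pigment epithelium and optic stalk. Bone morphogenetic protein signals from the dorsal side favour the T-box factors Tbx2, Tbx3 and Tbx5, while Sonic hedgehog from the midline favours the homeodomain factors Vax1 and Vax2 ventrally. These opposed sets of factors divide the cup into dorsal and ventral territories and thereby help to order the projections of retinal axons.

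Values are FPKM, mapped fragments scaled by transcript length and by the depth of the library, and each pair of values is given as replicate 1 and replicate 2. Depth was estimated at 28.5 M to 53.0 M fragments per library, and duplicates correlated across genes at Pearson r of 0.9922 to 0.9955. For the members, 3 fragments over the annotated exons corresponded to between 0.0052 FPKM (Rorb, the longest) and 0.13 FPKM (Vax1, the shortest), a limit from counting error only. Mettl3 did not mark the knockout: its mRNA averaged 35.0 ± 2.58 FPKM in WT and 43.4 ± 0.672 FPKM in the libraries labelled KO at day 0 (SD, n = 2 each), and 35.7 ± 0.863 and 37.6 ± 0.382 FPKM at day 6. A total does not show which part of the transcript was present, so it does not check the label. At day 0 the summed level of 8 stem cell genes was 1948 to 2240 FPKM over the 4 cultures. At day 6 WT libraries held the eye field genes Rax at 118 FPKM, Lhx2 at 234 FPKM and Six6 at 69.7 FPKM, whereas KO libraries held Rax at 0.30 FPKM, Lhx2 at 4.97 FPKM and Six6 at 0.02 FPKM. Eye field genes that other neural cells also use were high in KO, among them Pax6 at 112 FPKM, Sox2 at 211 FPKM and Mab21l2 at 212 FPKM, and 7 of the 12 listed genes averaged at least 1 FPKM there.

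Differences were tested with limma on log2(FPKM + 1), with p-values adjusted by the Benjamini-Hochberg method over 16276 genes, and called at an adjusted p under 0.05. The log2 differences below are on that scale, which understates changes of low genes. The fit pools the spread between duplicates over all 16 groups, so an SE is not the spread of the pairs compared. The 6 members tested exclude Vsx1 and Rorb, which reached no more than 0.56 and 0.61 FPKM and stayed under the filter of 1 FPKM in at least 2 libraries. Tbx2 and Tbx5 passed that filter through the Dex day 6 libraries alone, so a count over the 6 is a description and not support.

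**Figure D1:**
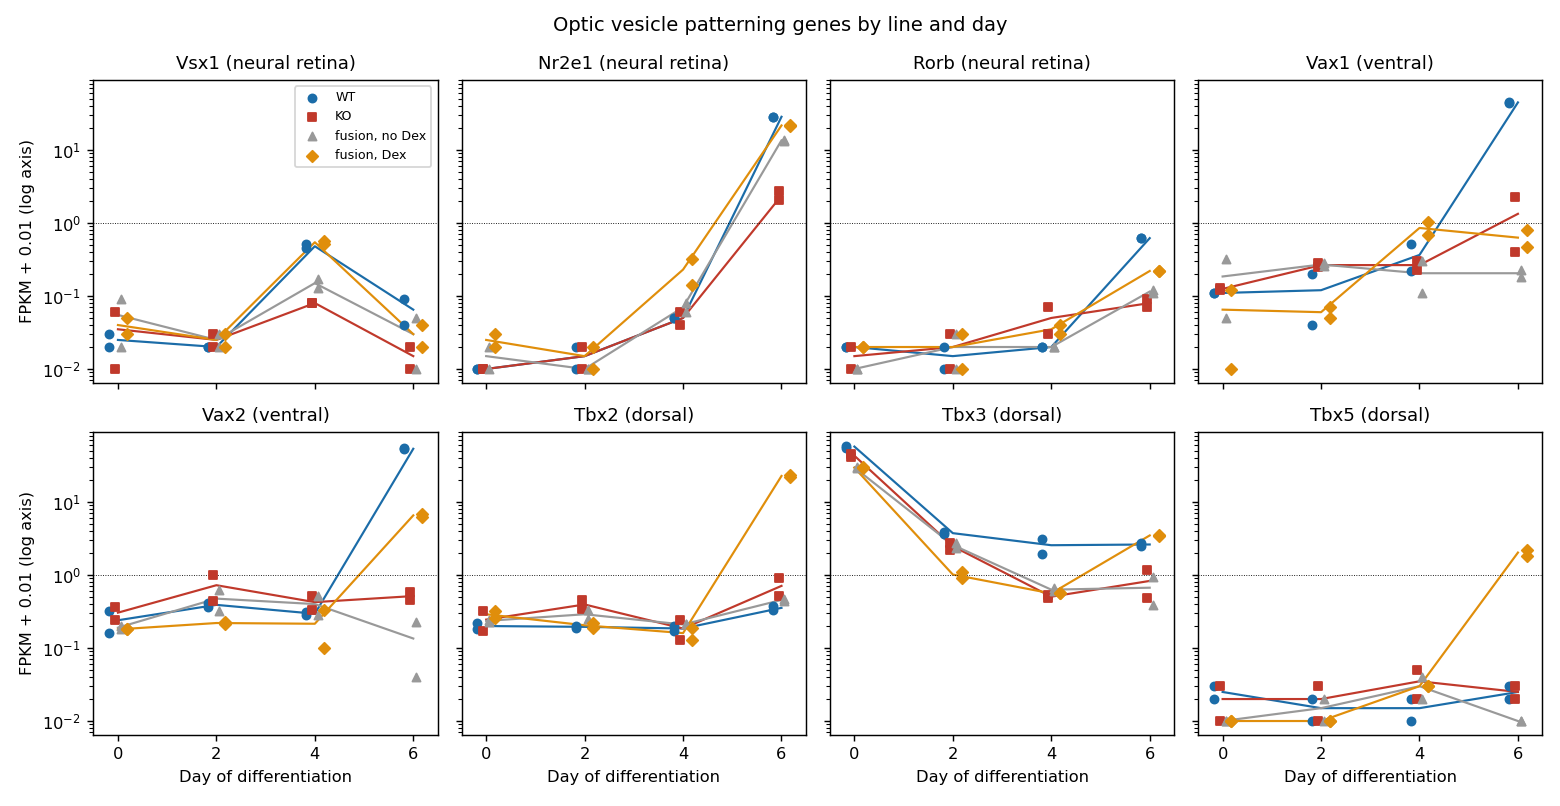
FPKM plus 0.01 on a log axis against the day of differentiation, 1 panel per gene, with points for single libraries, lines through the means of 2 libraries and a dotted line at 1 FPKM. At day 6 Vax1 and Vax2 were highest in WT (43.61 to 54.32 FPKM), Tbx2 and Tbx5 in Dex (1.84 to 23.23 FPKM), and Tbx3 was highest in stem cells (28.91 to 59.39 FPKM).

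Vax1, the homeodomain factor of the ventral vesicle, optic stalk and chiasm, appeared in WT between days 4 and 6 and hardly at all elsewhere. The 2 WT libraries held 0.21 and 0.50 FPKM at day 4 and 46.05 and 43.61 FPKM at day 6, a log2 rise of 5.09. KO libraries reached 0.39 and 2.26 FPKM at day 6, no Dex libraries 0.22 and 0.17 FPKM, and Dex libraries 0.46 and 0.78 FPKM. Every WT library thus stood above every library of the other 3 cultures, and the KO pair spread widely. The WT mean was 33.8-fold that of KO and 72.3-fold that of Dex. The log2 difference was -4.43 ± 0.24 (SE) for KO against WT (limma adjusted p = 3.12e-12) and -4.83 for Dex against WT (limma adjusted p = 1.58e-12). Dex and no Dex differed by 0.43 at day 6 and did not pass the test (limma adjusted p = 0.158), although their libraries did not overlap. The Dex mean was 3.18-fold that of no Dex. The SE used for Vax1 pools all 16 groups, the wide KO pair among them. No Dex differed from KO by -0.83 on the log2 scale (limma adjusted p = 0.00645), but this rested on the KO library at 2.26 FPKM: without it the difference was -0.22 (limma adjusted p = 0.285).

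Earlier, Vax1 stayed between 0.00 and 1.01 FPKM in all 24 libraries of days 0 to 4. The highest pair was Dex at day 4, with 1.01 and 0.68 FPKM, against 0.29 and 0.10 FPKM in no Dex. That difference of 0.63 passed the test (limma adjusted p = 0.0424) and was lost when any of the 4 libraries compared was left out.

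Vax2, the partner of Vax1 that persists in the ventral retina, also rose in WT, but unlike Vax1 it was present in the Dex cultures. At day 6 the WT libraries held 54.32 and 52.91 FPKM, Dex 6.87 and 6.23 FPKM, KO 0.57 and 0.44 FPKM, and no Dex 0.03 and 0.22 FPKM. The 4 cultures did not overlap, in the order WT, Dex, KO, no Dex. The WT mean was 106-fold that of KO and 8.19-fold that of Dex. The log2 difference was -5.18 ± 0.14 for KO against WT (limma adjusted p = 9.77e-17). Dex exceeded no Dex by 2.75 ± 0.14 (limma adjusted p = 1.09e-11), and its difference from WT was -2.86 (limma adjusted p = 1.39e-12). From day 4 to day 6 Vax2 rose by 5.41 in WT and by 2.65 in Dex. Before day 6 no library exceeded 1.00 FPKM. An antisense gene, Vax2os, lies within the Vax2 locus with no shared exon, at 0.02 to 9.54 FPKM and highest in a WT day 6 library, and it is not given whether counting used strand.

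Vax1 lies on chromosome 19 (GRCm38, chr19:59166187-59170056, minus strand), Vax2 on chromosome 6 (chr6:83711264-83738313, plus strand) and Nr2e1 on chromosome 10 (chr10:42561963-42583632, minus strand), in the GENCODE M21 annotation. Promoter windows of 300 bases (250 before and 50 after the start) from RefSeq, GRCm38.p6, matched 4 of the 8 members, namely Vsx1, Nr2e1, Rorb and Vax1. Vax2, Tbx2, Tbx3 and Tbx5 had no entry. The windows of Vax1, Nr2e1 and Vsx1 are shown because these genes have 3 different time courses here, on in WT alone at day 6, on in every culture at day 6, and on briefly at day 4. Each runs 5′ to 3′ along the gene's minus strand, at chr19:59170348-59170647, chr10:42583541-42583840 and chr2:150689088-150689387. The Vax1 window lies wholly upstream of the GENCODE gene given above, because the RefSeq start is further upstream. Capitals mark the core TAAT that homeodomain proteins such as Vax1, Rax and Lhx2 bind, read on either strand (TAAT or ATTA).
Vax1: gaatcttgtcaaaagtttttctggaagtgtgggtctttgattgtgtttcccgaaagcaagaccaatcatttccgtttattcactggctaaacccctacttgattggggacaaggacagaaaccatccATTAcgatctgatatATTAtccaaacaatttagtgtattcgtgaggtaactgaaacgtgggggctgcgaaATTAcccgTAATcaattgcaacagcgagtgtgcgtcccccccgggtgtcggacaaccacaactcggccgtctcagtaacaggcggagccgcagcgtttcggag
Nr2e1: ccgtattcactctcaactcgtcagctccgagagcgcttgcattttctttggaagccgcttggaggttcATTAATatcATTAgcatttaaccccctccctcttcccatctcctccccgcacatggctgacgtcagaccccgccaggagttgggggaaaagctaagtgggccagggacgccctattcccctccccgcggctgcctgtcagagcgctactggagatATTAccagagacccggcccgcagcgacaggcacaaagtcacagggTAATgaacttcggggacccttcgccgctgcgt
Vsx1: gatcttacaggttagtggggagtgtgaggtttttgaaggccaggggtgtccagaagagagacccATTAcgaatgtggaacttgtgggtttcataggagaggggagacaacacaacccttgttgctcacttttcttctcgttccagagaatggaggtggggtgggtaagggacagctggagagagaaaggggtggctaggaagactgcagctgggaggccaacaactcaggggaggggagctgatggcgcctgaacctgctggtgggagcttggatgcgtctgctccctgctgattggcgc

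The Vax1 window held 4 cores and the Nr2e1 window 5, of which 2 overlap in ATTAAT, while the Vsx1 window held 1. Among 32851 such windows 58.0% held at least 1 core, 11.6% at least 4 and 6.86% at least 5. Searched on both strands, TAATTA (5.29% of windows) and TAATCC (7.06%), which both contain the core, and the T-box and glucocorticoid receptor half-sites GGTGTG (19.0%) and TGTTCT (19.0%) were not in the windows of the 4 matched members. A match is a description of letters and not a site, and a missing match says only that these letters are not in this window.

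Tbx2, a T-box factor of the dorsal vesicle and pigment epithelium, set the Dex cultures of day 6 apart, as did Tbx5 at a lower level. At day 6 the Dex libraries held 22.24 and 23.23 FPKM. WT held 0.32 and 0.37 FPKM, KO 0.90 and 0.50 FPKM, and no Dex 0.46 and 0.43 FPKM. The Dex pair stood far above the other 6 libraries of that day and above every library of earlier days, none of which exceeded 0.44 FPKM. Its mean was 65.9-fold that of WT and 51.1-fold that of no Dex. The log2 difference was 4.04 ± 0.08 for Dex against no Dex (limma adjusted p = 2.33e-17) and 4.14 for Dex against WT (limma adjusted p = 4.70e-18). KO lay 0.33 above WT (limma adjusted p = 0.00217), at levels under 1 FPKM. That small difference lost its call without KO replicate 1 (0.16, limma adjusted p = 0.101).

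Tbx5, the T-box factor of the most dorsal retina and otherwise known from heart and forelimb, was measurable in the Dex day 6 libraries, at 2.20 and 1.84 FPKM. No other library exceeded 0.04 FPKM, and both no Dex libraries of day 6 listed it at 0. Dex exceeded no Dex by 1.59 ± 0.05 on the log2 scale (limma adjusted p = 1.57e-14) and WT by 1.57 (limma adjusted p = 3.97e-15). The other groups lay about the level of 3 fragments (0.013 to 0.024 FPKM), so no fold is given. Tbx2 (chr11:85832551-85841948, plus strand) is on chromosome 11, while Tbx3 (chr5:119670669-119684724) and Tbx5 (chr5:119832668-119885219) are neighbours on the plus strand of chromosome 5.

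Tbx3, the T-box factor that also belongs to the pluripotency network of mouse stem cells, had its highest levels before differentiation began. At day 0 it stood at 55.54 and 59.39 FPKM in WT, 40.83 and 45.35 FPKM in KO, 30.43 and 28.91 FPKM in no Dex, and 29.75 and 29.28 FPKM in Dex. By day 2 it had fallen in every culture, with log2 changes of -3.63 in WT, -3.67 in KO, -3.11 in no Dex and -3.93 in Dex. All 8 stem cell genes fell over the same step in WT, where 63.4% of all genes were called, with a median log2 change of -2.48. From then on WT kept 1.96 to 3.88 FPKM, while KO at days 4 and 6 held 0.47 to 1.16 FPKM.

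KO was below WT at each day, with log2 differences of -0.41 at day 0 (limma adjusted p = 0.0444), -0.45 at day 2 (limma adjusted p = 0.022), -1.23 at day 4 (limma adjusted p = 1.91e-06) and -1.01 ± 0.16 at day 6 (limma adjusted p = 1.72e-05). The day 0 call was lost with any 1 of the 4 libraries left out. The 6 genes of extraembryonic endoderm, a lineage in which Tbx3 is also active, were listed beside it. All 6 were lower in KO at each of the 4 days, where 48.2% to 65.1% of all genes were called. They summed to 66.90 to 66.97 FPKM in WT and 11.79 to 11.81 FPKM in KO at day 6. Of the 8 stem cell genes, 2 were higher and 3 lower in KO at day 0, 4 and 1 at day 2, and 2 and 5 at day 4. All 8 were lower at day 6, at sums of 36.59 to 37.37 FPKM in KO and 89.69 to 90.29 FPKM in WT. The part of either list in the Tbx3 difference was not tested. In Dex, Tbx3 rose from 0.55 FPKM in both day 4 libraries to 3.54 and 3.41 FPKM at day 6, a log2 rise of 1.53 (limma adjusted p = 8.02e-08). No Dex held 0.94 and 0.38 FPKM, and Dex exceeded it by 1.45 ± 0.16 (limma adjusted p = 5.84e-07), or 5.27-fold in the means. Against WT at day 6 the Dex difference of 0.31 did not pass (limma adjusted p = 0.105), although both Dex libraries lay above the 2.73 and 2.49 FPKM of WT. The antisense gene Tbx3os1 overlaps Tbx3 exons, at 0.00 to 3.42 FPKM and highest in a WT day 0 library, and reads of the pair cannot be told apart if strand was not used.

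Nr2e1 (Tlx), an orphan nuclear receptor that keeps retinal and forebrain progenitors dividing, rose in all 4 cultures. At day 4 it was between 0.03 and 0.31 FPKM, and at day 6 it reached 28.50 and 28.49 FPKM in WT, 21.92 and 21.43 FPKM in Dex, 13.85 and 13.22 FPKM in no Dex, and 2.70 and 2.03 FPKM in KO. The 4 pairs did not overlap. The rise from day 4 was 4.83 on the log2 scale in WT, 4.22 in Dex, 3.78 in no Dex and 1.69 in KO. The WT mean was 12.1-fold that of KO, with a log2 difference of -3.14 ± 0.07 for KO against WT (limma adjusted p = 7.70e-18).

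Nr2e1 was also the member in which the fusion line without Dex stood well above KO, 5.72-fold in the means and 2.12 on the log2 scale (limma adjusted p = 2.2e-14). Dex added a 1.60-fold difference over no Dex, 0.64 ± 0.07 on the log2 scale (limma adjusted p = 5.43e-07). Dex stayed below WT, with a log2 difference of -0.38 (limma adjusted p = 0.000122), a call that was lost with a pseudocount of 0.1 (-0.39, limma adjusted p = 0.111). Genes of forebrain outside the eye were measured beside it. Emx2, a factor of the cortical forebrain, was at 13.62 and 18.29 FPKM in WT, 86.87 and 88.10 in Dex, 72.40 and 72.44 in no Dex, and 8.22 and 10.40 in KO. Like Nr2e1 it was higher in no Dex than KO (log2 difference 2.84, limma adjusted p = 6.87e-10), and unlike Nr2e1 it was lower in WT than Dex. Dlx2 averaged 0.22 FPKM in WT and between 2.05 and 2.43 FPKM in the other cultures, and Gsx2 and Nkx2-1 stayed under 1 FPKM. The part of such cells in the Nr2e1 difference was not tested.

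Vsx1, a paired-like homeodomain factor of retinal interneurons, was low and transient. At day 4 it was 0.50 and 0.44 FPKM in WT and 0.56 and 0.51 FPKM in Dex, against 0.12 and 0.16 FPKM in no Dex and 0.07 in both KO libraries. At all other days it was at most 0.08 FPKM, so the day 4 peak in WT and Dex stood clear of the level of 3 fragments (0.016 to 0.03 FPKM). With no filter on low values, KO differed from WT by -0.46 at day 4 (limma adjusted p = 9.68e-10) and Dex was 0.43 above no Dex (limma adjusted p = 1.16e-08). Vsx1 lies on chromosome 2 (chr2:150680702-150689360, minus strand).

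Rorb, an orphan nuclear receptor of retinal progenitors and photoreceptor precursors, was low throughout, with its highest mean at day 6 in each culture. It was 0.61 FPKM in both WT day 6 libraries, 0.21 in both Dex libraries, 0.10 and 0.11 in no Dex, and 0.06 and 0.08 in KO. No earlier library passed 0.06 FPKM. With no filter, KO differed from WT by -0.59 at day 6 (limma adjusted p = 7.14e-16). Dex was 0.13 above no Dex (limma adjusted p = 4.21e-06) and differed from WT by -0.41 (limma adjusted p = 2.17e-13). Rorb is on chromosome 19 (chr19:18930605-19111196, minus strand).

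At day 6, 5 of the 6 tested members were called in KO against WT, where 65.1% of all genes tested were called, and 4 of 6 in the fusion line without Dex against KO, where the share was 49.0%. The count of 4 became 2 or 3 with any 1 of the 4 libraries left out and 1 in a fit of those groups alone. Dex differed from no Dex in 5 of 6, beside a background of 42.7%, and from WT in 5 of 6, beside 61.4%. With backgrounds this high the counts say little about these genes as a group, and the sizes of the changes carry the description. Before day 6 the calls were few: in KO against WT, Tbx3 at day 0 (background 48.2%), Tbx2 and Tbx3 at day 2 (58.9%) and Tbx3 at day 4 (60.5%). Of these, the day 2 calls were lost with certain single libraries left out, Tbx2 without either WT library or KO replicate 1 and Tbx3 without WT replicate 1 or KO replicate 2. Between no Dex and KO, Tbx3 was called at day 0 (background 49.1%), a call lost with a pseudocount of 0.1 (limma adjusted p = 0.154) and without KO replicate 2 or no Dex replicate 2. For no Dex against KO limma called 0 of 6 members at day 2 (37.0%) and day 4 (26.7%). In those groups the tested members other than Tbx3 stood at no more than 1.00 FPKM. The log2(FPKM + 1) scale understates changes at that level, so a count of 0 does not show equal levels. The count was 0 also for Dex against no Dex at day 0 (43.4%), and at an unadjusted p under 0.05 all 3 of these counts were still 0. A dose of Dex is not recorded for the day 0 group labelled Dex. The day 0 share of 43.4% was nevertheless close to the 42.7% of Dex against no Dex at day 6.

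Between Dex and no Dex, Tbx3 was the member called earliest. At day 2 the Dex libraries held 1.10 and 0.91 FPKM and the no Dex libraries 2.77 and 2.36 FPKM, so the pairs did not overlap. Dex differed from no Dex by -0.83 on the log2 scale (limma adjusted p = 0.000348), the 1 member called of 6 where 44.3% of all genes were called. The day 2 pairs also did not overlap, with Dex lower, for Vax1 (means 0.05 and 0.26 FPKM), Vax2 (0.21 and 0.465) and Tbx2 (0.195 and 0.28). These lay under 1 FPKM, where the scale understates changes, and were not called. In the same comparison 7 of the 8 stem cell genes were lower and none higher. Their median log2 change was -0.62, where that of all genes was -0.08, and their part in the Tbx3 difference was not tested. At day 4 Nr2e1, at 0.31 and 0.13 FPKM in Dex against 0.05 and 0.07 FPKM in no Dex, and Vax1 were called (background 40.2%). The Nr2e1 difference of 0.20 (limma adjusted p = 0.0319) was lost without Dex replicate 1 (0.09) and without either no Dex library. Against WT, Dex was lower in Tbx3, with log2 differences of -0.94 at day 0 (background 49.8%), -1.24 at day 2 (29.4%) and -1.18 at day 4 (44.7%). Nr2e1 was also called at day 4, but not without either WT library or Dex replicate 1 (0.12, limma adjusted p = 0.252).

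**Figure D2:**
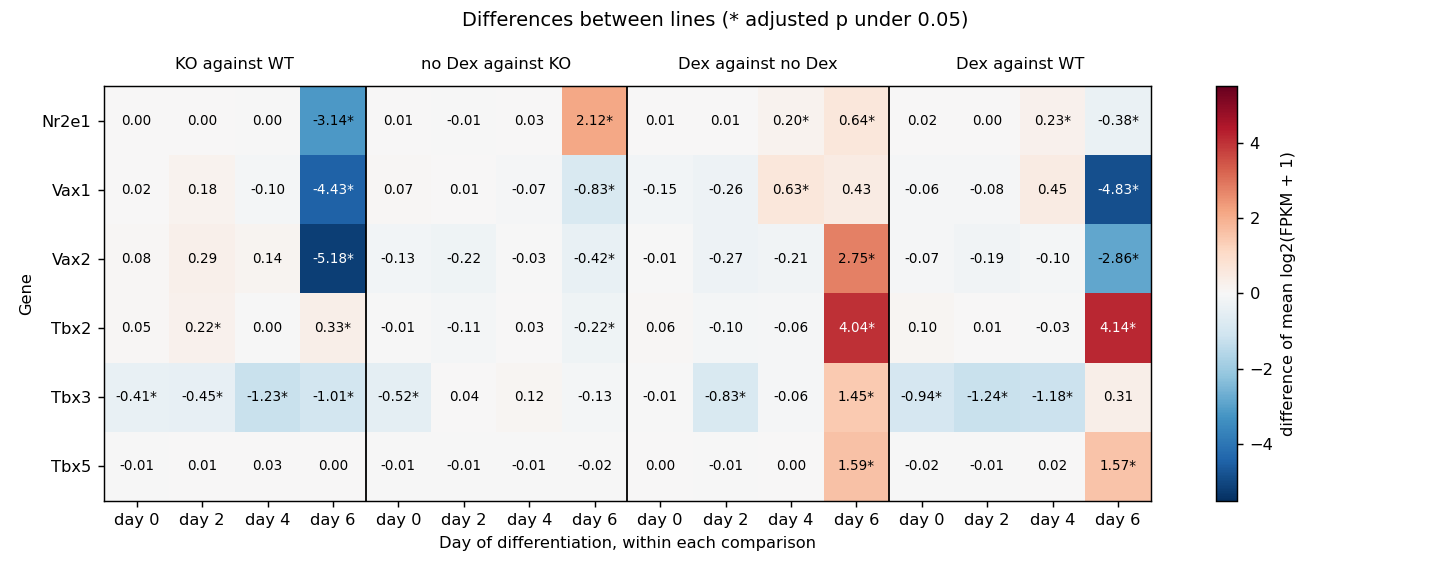
Differences of mean log2(FPKM + 1) between cultures for the 6 tested members (rows) at each day (columns), with an asterisk where the limma adjusted p was under 0.05. The strongest colours are at day 6, Vax1 and Vax2 in KO against WT (-4.43 and -5.18), Vax1 in Dex against WT (-4.83), and Tbx2 in Dex against no Dex and against WT (4.04 and 4.14).

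Over time, Tbx3 alone was called from day 0 to day 2 in WT (63.4% of all genes called), no Dex (67.9%) and Dex (60.6%), and Tbx3 and Vax2 in KO (65.6%). The Vax2 value in KO, 0.39 on the log2 scale, was lost without KO day 2 replicate 1 (0.14, limma adjusted p = 0.405) or KO day 0 replicate 1. From day 2 to day 4 it was Tbx3 in WT (59.9%) and no Dex (60.8%), Tbx2 and Tbx3 in KO (64.2%), and Nr2e1 and Vax1 in Dex (66.7%). Several of these calls were weak: Tbx3 in WT was lost without WT day 4 replicate 1 (-0.19, limma adjusted p = 0.388) or either WT day 2 library, Tbx2 in KO without replicate 1 of day 2 or day 4, and Nr2e1 and Vax1 in Dex without Dex day 4 replicate 1. Tbx3 in KO and no Dex kept its call with any 1 library left out. The last step held the main switches. Between days 4 and 6 the called members were Nr2e1, Vax1 and Vax2 in WT (66.7%), Nr2e1, Vax1 and Tbx2 in KO (65.3%), Nr2e1 and Tbx2 in no Dex (67.9%), and Nr2e1, Vax2, Tbx2, Tbx3 and Tbx5 in Dex (65.1%). The Vax1 rise in KO, 0.76 on the log2 scale, was lost without the KO day 6 library at 2.26 FPKM (0.15, limma adjusted p = 0.434). From day 0 to day 6, 4 of 6 members were called in WT (78.1%) and KO (80.4%), 3 in no Dex (81.9%) and 6 in Dex (80.4%). Among these, Vax1 in KO was lost without KO day 6 replicate 2, Vax1 in Dex without Dex day 0 replicate 2 or day 6 replicate 2, and Tbx2 in no Dex without replicate 1 of day 0 or day 6. The change over those days differed for 4 members when KO was set against WT (56.9% of all genes) and for 5 when Dex was set against no Dex (48.7%).

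The ventral members were set against the dorsal members Tbx2 and Tbx5, leaving out Tbx3, which is high in stem cells, a choice made with its values known. The sum of Vax1 and Vax2 was 100.37 and 96.52 FPKM in WT, 7.33 and 7.01 in Dex, 0.96 and 2.70 in KO, and 0.25 and 0.39 in no Dex. The sum of Tbx2 and Tbx5 was 24.44 and 25.07 FPKM in Dex, 0.34 and 0.38 in WT, 0.91 and 0.52 in KO, and 0.46 and 0.43 in no Dex. WT libraries were therefore high in the ventral pair and low in Tbx2 and Tbx5, Dex libraries were high in Tbx2 and Tbx5 with some Vax2, and KO and no Dex libraries were low in both. With Tbx3 added the dorsal sum was 27.98 and 28.48 FPKM in Dex, 3.07 and 2.87 in WT, 2.07 and 1.00 in KO, and 1.40 and 0.81 in no Dex, so WT then stood above KO and no Dex. In bulk RNA fewer cells of a type and less RNA per cell cannot be told apart.

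**Figure D3:**
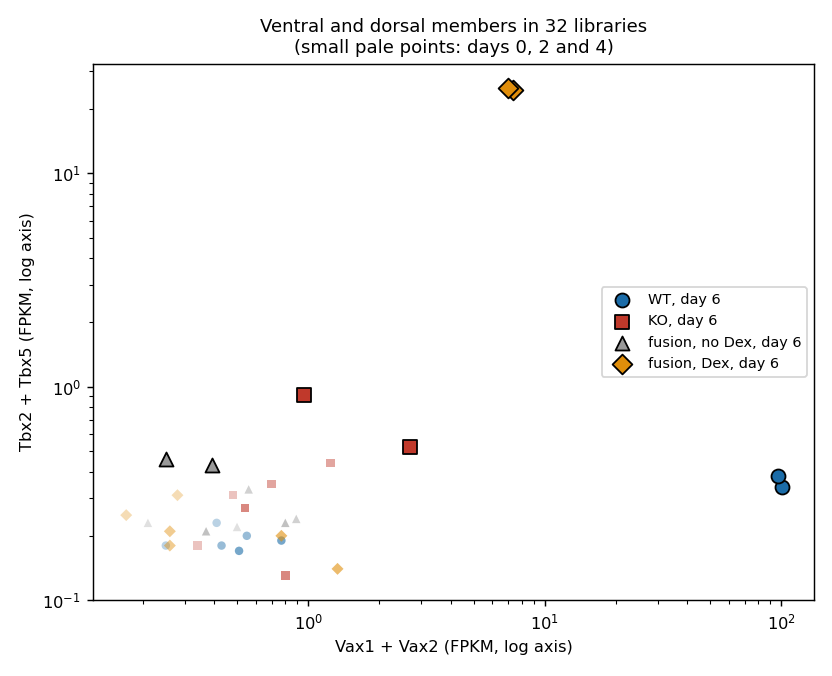
Summed FPKM of Tbx2 and Tbx5 against summed FPKM of Vax1 and Vax2, both on log axes, 1 point per library. The WT day 6 pair lies at lower right (96.52 to 100.37 and 0.34 to 0.38 FPKM), the Dex day 6 pair at the top (7.01 to 7.33 and 24.44 to 25.07 FPKM), and all other libraries lie low on both axes.

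At day 6 other genes of the ventral vesicle and stalk were low in KO and Dex beside Vax1. Of 7 such genes, 6 were lower in KO than WT and none higher, where 65.1% of all genes were called. The median log2 change of the list was -1.93 where the median of all tested genes was -0.03, and Ephb3 did not pass. The same 6 were lower in Dex than WT (61.4% of all genes called), with a median of -1.61. Pax2, the stalk's paired-box factor, averaged 39.5 FPKM in WT, 3.61 in Dex, 0.38 in KO and 0.30 in no Dex. Aldh1a3, the ventral retinoic acid enzyme, averaged 12.2, 0.97, 0.12 and 0.145 FPKM in the same order. Dex was above no Dex for Pax2, Aldh1a3, Ephb2 and Bmpr1b and below it for Ntn1 (42.7% of all genes called). Day 4 was different, with 4 of the 7 genes higher and 1 lower in KO than WT (60.5%). In Dex 3 were higher than in WT and none lower (44.7%). At day 4 the list summed to 28.93 to 29.58 FPKM in WT, 41.93 to 42.55 in KO and 55.93 to 57.11 in Dex.

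The dorsal list was mixed at day 6. Of its 5 tested genes, Bmp4, Bambi, Efnb1 and Aldh1a1 were higher in Dex than no Dex and Efnb2 was lower (42.7% of all genes called). The median log2 change was 0.59. Against WT, Dex was higher in Bmp4, Bambi and Efnb1 and lower in Aldh1a1 and Efnb2 (61.4%). Aldh1a1, the dorsal retinoic acid enzyme, was highest in WT, at a mean of 2.59 FPKM against 0.84 in Dex. Bmp4, the dorsal ligand upstream of the T-box genes in the embryo, averaged 34.2 FPKM in Dex, 14.5 in WT, 4.22 in KO and 3.62 in no Dex. Its pairs spread widely, over 27.09 to 41.32 FPKM in Dex and 2.24 to 4.99 FPKM in no Dex. In Bmp4, Dex exceeded no Dex by 2.97 ± 0.33 (limma adjusted p = 4.94e-07) and WT by 1.15 (limma adjusted p = 0.00471). KO differed from WT by -1.58 in Bmp4 (limma adjusted p = 0.000278), while Tbx2 was under 1 FPKM in both cultures. In KO against WT 2 of the 5 dorsal genes, Bambi and Efnb1, were higher and 2, Bmp4 and Aldh1a1, lower, where 65.1% of all genes were called. Bambi and Efnb1 were thus not particular to Dex. Efnb1 averaged 80.6 FPKM in KO and 61.9 in Dex, and Bambi 3.92 and 3.76 FPKM.

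Among the signals that set the axis, 7 genes were tested (of Shh, Ptch1, Gli1, Bmp7, Id1, Id3, Aldh1a2, Cyp26a1 and Cyp26c1). At day 6 KO had 2 higher, Id1 and Id3, and 4 lower than WT. No Dex had 1 higher, Bmp7, and 5 lower than KO, Id1 and Id3 among them. Dex had 5 higher, with Bmp7 and Id3 among them, and 1 lower, Id1, than no Dex. Against WT it had 3 higher, Bmp7, Id1 and Id3, and 4 lower. Gli1 and Ptch1 were among the lower genes in KO against WT, no Dex against KO and Dex against WT. Both were among the higher genes in Dex against no Dex. With 65.1%, 49.0%, 42.7% and 61.4% of all genes called in these 4 comparisons, such counts say little about the list. Of 11 tested eye field and neural retina genes, 8 were lower and 2 higher in KO than WT at day 6, and 8 were higher and 1 lower in Dex than no Dex. Against WT, 9 were lower in Dex and 2, Mab21l2 and Pax6, were higher. The same shares of all genes apply to these day 6 counts. At day 4, however, 9 were higher in Dex than WT and none lower, where 44.7% of all genes were called. The median log2 change was 0.77, and the list summed to 646.5 to 652.28 FPKM in Dex and 382.62 to 388.97 in WT.

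At day 6 pigment epithelium genes were high in the cultures that held Tbx2. All 4 tested genes, Mitf, Dct, Pmel and Trpm1, were higher in Dex than no Dex (42.7% of all genes called), with a median log2 change of 4.34. All 4 were also higher in Dex than WT (61.4%), with a median of 2.16. The summed level of the list of 6 was 102.13 to 104.02 FPKM in Dex, 16.39 to 17.90 in WT, 2.25 to 2.34 in KO and 1.81 to 2.09 in no Dex, and Tyr was listed at 0 in all 4. Tbx2 is itself active in pigment epithelium, and the part of such cells in its difference was not tested.

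**Figure D4:**
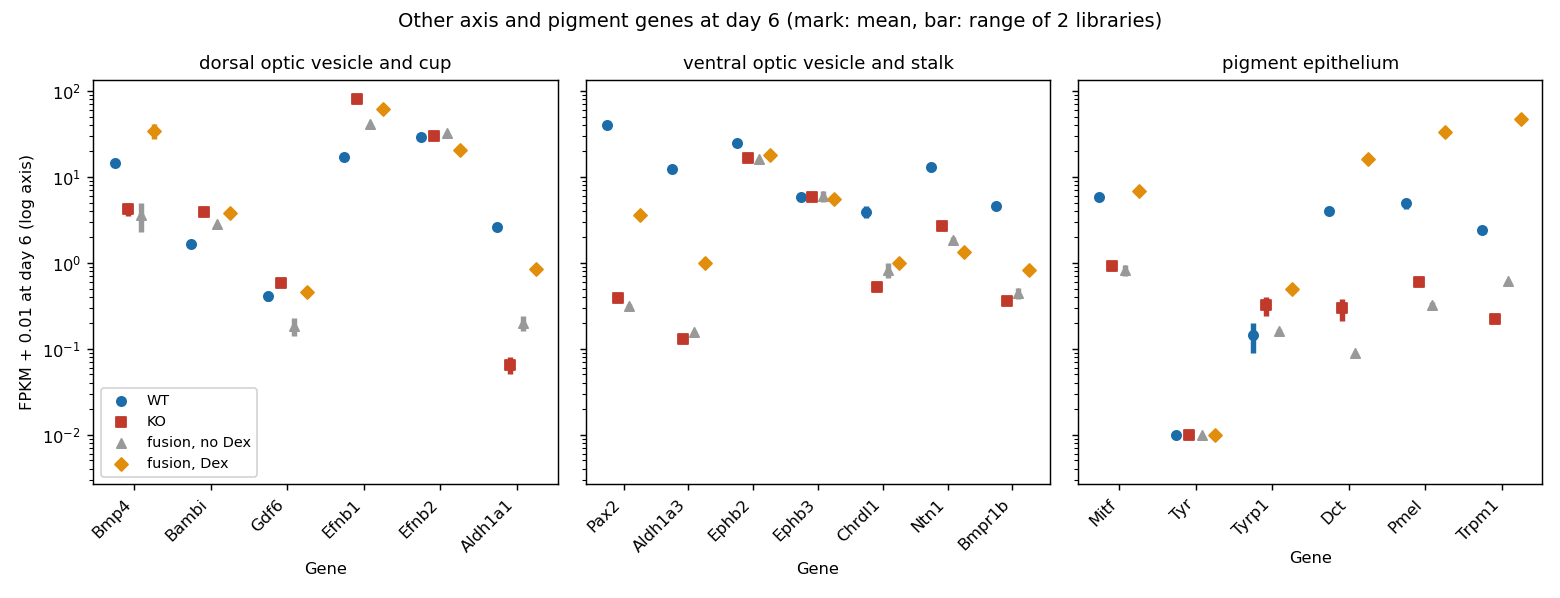
FPKM plus 0.01 on a log axis at day 6 for listed genes of the dorsal vesicle, the ventral vesicle and stalk, and the pigment epithelium, with marks at the mean and bars over the range of 2 libraries. Pax2 and Aldh1a3 are highest in WT (39.5 and 12.2 FPKM), and Bmp4, Dct, Pmel and Trpm1 in Dex (34.2, 16.04, 33.1 and 46.7 FPKM).

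Other cell types in which the T-box members are active were measured beside them at day 6. The heart and early mesoderm list summed to 1.91 to 1.92 FPKM in Dex, below the 2.98 to 2.99 of no Dex and the 4.14 to 4.24 of WT. The neural crest list (Sox10, Foxd3, Tfap2a, Snai2) summed to 16.90 to 17.36 FPKM in Dex, 32.74 to 33.94 in no Dex, 31.94 to 33.14 in KO and at most 3 in WT. Single genes of both lists were higher in Dex than no Dex, Hand1 at a mean of 0.76 against 0.25 FPKM and Snai2 at 2.46 against 1.95 FPKM. The part of such cells in the Tbx2 and Tbx5 differences was not tested. Of 4 tested midbrain and hindbrain genes, 4 were lower in Dex than no Dex at day 6, where 42.7% of all genes were called.

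Some genes followed single members closely over the 16 group means, given as Pearson r of log2(FPKM + 1) and as a description only, since groups share line and day. Vax2 was followed by Six6 (0.995), Kcnip1 (0.988) and Aldh1a1 (0.983), and Vax1 by Gkn2 (0.982), Slitrk1 (0.980) and Clstn2 (0.977). Rorb was followed by Kcnip1 (0.988), Me3 (0.986) and Aldh1a1 (0.986), and Nr2e1 by Lrrc4c (0.987), Megf10 (0.985) and Dmrta2os (0.985). Tbx5 and Tbx2 shared Tpbpb (0.993 and 0.986), Inmt (0.978 and 0.976) and Prl4a1 (0.967 and 0.966). Tbx3 was followed by Pmepa1 (0.989), Itpka (0.978) and Kank4 (0.978), and Vsx1 by Ermn (0.988), Nr5a1 (0.974) and Nptx1 (0.930). Among the members, Tbx2 and Tbx5 were most alike (0.99), then Vax2 and Rorb (0.964), whereas Vax1 and Tbx2 gave 0.035. Tbx2, Tbx5 and the 3 genes they share averaged at least 1 FPKM in Dex day 6 alone, so that 1 group largely fixes their values. Vax1, Vax2, Rorb and the genes that followed them were highest in WT day 6, which weighs on their values likewise.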

How the data were processed

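PolyA-selected RNA was sequenced as paired reads, per the labels. The deposited values are FPKM made by the authors, rounded to 2 decimals. STAR, Cuffdiff and mm10 are named in the submitters' processing notes, without versions. The deposited table held 55492 rows, 21161 of them at 0 in all 32 libraries. Gene positions come from GENCODE M21 (GRCm38).

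Depth was estimated from the steps of low FPKM values in 10480 genes with 1 transcript. The share of those values that fell at whole fragments (tolerance 0.2) was 85.6% to 93.0%, where chance gives 40.0%. Differences were tested with limma 3.58.1 in R 4.3.3 on log2(FPKM + 1), in 1 fit of 16 group means with 16 residual degrees of freedom and a mean-variance trend, two-sided. Genes needed 1 FPKM in at least 2 libraries, which left 16276. Tables were made with Python 3.11.15 and pandas 2.3.3. The method was tested on simulated data. Replicate numbers did not pair the libraries.

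Named genes were the 8 members, Mettl3, the genes of 11 marker lists, and the 3 genes most like each member, without predicted or clone names. The result of 1 of the lists is not reported here. The members and lists were chosen with earlier results of these data known. Alternatives were a pseudocount of 0.1, no filter, a mean of at least 1 FPKM, median-of-ratios rescaling, fits of the compared groups alone, a replicate block, and each library left out.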

Additional observations from a re-analysis of the deposited data

Results flagged for a closer look

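Several members changed differently in different cultures over the 6 days, tested as an interaction in limma. For KO against WT the day 6 difference minus the day 0 difference was -5.26 for Vax2, -4.45 for Vax1, -3.14 for Nr2e1 and -0.60 for Tbx3 on the log2 scale, so 4 of 6 tested members passed, beside 56.9% of all genes tested. The Tbx3 value did not pass without KO day 6 replicate 2 (-0.33, limma adjusted p = 0.218), nor without WT day 0 replicate 1, WT day 6 replicate 1 or KO day 0 replicate 2, with no filter, or in a fit of the compared groups alone.

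For Dex against no Dex the same measure was 3.97 for Tbx2, 2.76 for Vax2, 1.59 for Tbx5, 1.46 for Tbx3 and 0.63 for Nr2e1, so 5 of 6 passed, beside 48.7% of all genes. The Nr2e1 value did not pass with a pseudocount of 0.1 (0.54, limma adjusted p = 0.141). The interactions share libraries with the day 6 differences and are no independent support for them.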

How the results depend on the processing

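The 81 called changes of members kept their direction in all 841 alternative values, and 57 kept their call in each one run. All 52 changes of at least 1 on the log2 scale were among those 57. The other 24 lost the call in at least 1 alternative, and the cause was not tested. Under the replicate block no called change was lost (81 of 81), and the count of members called for no Dex, day 2 against day 0, went from 1 to 2. Replicate differences of different groups had correlations of -0.088 to 0.125 (120 pairs of groups), and the numbers were not taken as a pairing.

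Counts of members called moved as follows, where the cause was not tested. With a pseudocount of 0.1 the count went from 1 to 0 for KO against WT at day 0, no Dex against KO at day 0 and WT day 4 against day 2, from 2 to 1 for KO against WT at day 2 and KO day 2 against day 0, and from 1 to 2 for no Dex day 4 against day 2. With no filter, which lets Vsx1 and Rorb in, it was 0 for KO against WT at day 0, 2 at day 4, 1 for Dex against no Dex at day 4, 5 for WT day 6 against day 4, and 2 and 4 for no Dex day 4 against day 2 and day 6 against day 4. Rescaling gave 0 for KO against WT at day 0. Tbx5 had no value with a mean of at least 1 FPKM, which it does not reach. Fits of the compared groups alone, which have fewer libraries, gave 1 for no Dex against KO at day 6, 2 for Dex against no Dex at day 2 and 0 at day 4, 1 for Dex against WT at day 4, 0 for WT day 4 against day 2, 1 for KO day 4 against day 2 and 2 for KO day 6 against day 0. Those fits called 3357 of all genes for KO against WT at day 0 (7849 in the 32-library fit), 3941 at day 2 (6027) and 2284 at day 4 (4339) between no Dex and KO, and 4342 at day 0 (8106) and 2603 at day 2 (4782) between Dex and WT.

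With 1 library left out, its partner being assumed to vary like the other groups, counts of members ran from 0 to 0 for KO against WT at day 0 and 0 to 2 at day 2, 0 to 1 for no Dex against KO at day 0, the same at day 2, and 2 to 3 at day 6, 0 to 1 for Dex against no Dex at day 4, 1 to 2 for Dex against WT at day 4, 0 to 1 for WT day 4 against day 2, 1 to 3 for KO day 2 against day 0 and day 4 against day 2, 1 to 2 for no Dex day 2 against day 0, and 0 to 2 for Dex day 4 against day 2.

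Rescaling moved the median of all genes by over 0.1 in 6 of 34 comparisons, namely day 6 against day 0 in WT (0.089 to -0.026), KO (0.094 to -0.009), no Dex (0.166 to -0.025) and Dex (0.135 to -0.01), day 2 against day 0 in no Dex (0.099 to -0.011) and day 4 against day 2 in Dex (0.089 to -0.018). It moved the share of calls that were higher by over 10 percentage points in 11, most for Dex against no Dex at day 2 (28.7% to 50.1%), and in none of the 4 comparisons between cultures at day 6. Having 2 libraries per group and levels under 1 FPKM limit Vsx1, Rorb and the early values of most members.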
